A study of Mus musculus with 21 samples.

Results

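Reactive oxygen species are made by NADPH oxidases and by respiration, and are removed by several enzyme families. The 37 genes described here code for oxidase subunits, superoxide dismutases, catalase, glutathione peroxidases, peroxiredoxins, thioredoxins and their reductases, the regulators NRF2 and KEAP1, target genes of NRF2 and the metallothioneins. They were taken by gene symbol from 31053 genes in a single-cell matrix, and all 37 were found there and among 21938 protein-coding genes of the annotation. The rule uses symbols only and no measured value.

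The study, on Map3k2, a MAP3 kinase gene, and stromal cells of the gut, deposited 21 samples. Used here were 8 libraries of accessible chromatin (ATAC-seq), 2 for each of 4 sorted populations, and 1 droplet library of single-cell RNA. The ATAC-seq cells came from the colon of male C57BL/6 mice aged 12 weeks, with no genotype or treatment in their labels. They were sorted as negative for CD45, Epcam and CD31 and positive for gp38, and then by subset markers into the populations labelled MRISC, CD34 SP, CD138 (CD34-CD138+) and Myofibroblast. The single cells were gp38+CD90+ mesenchymal stromal cells from the colon of wild-type female C57BL/6 animals aged 12 weeks given 2% dextran sulphate sodium (DSS), a polymer that injures the colon epithelium, with the sample titled day 3. There was no untreated single-cell sample, so no value below measures a response to DSS. The labels do not say how many mice were pooled. The 12 bulk RNA samples of whole colon (wild-type or Map3k2-/-) were not analysed here.

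In resting cells KEAP1 holds the transcription factor NRF2 (gene Nfe2l2) for degradation. Oxidants and electrophiles modify KEAP1, NRF2 accumulates, and with small MAF proteins it binds antioxidant response elements (AREs) near genes such as Nqo1, Gclm and Srxn1. Metallothioneins are small cysteine-rich proteins that bind zinc and copper, and their genes are induced by the zinc-sensing factor MTF1 through metal response elements (MREs) and by glucocorticoids and inflammatory signals. In the inflamed colon both phagocytes and epithelium produce oxidants, to which the stroma is exposed.

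Sequences of members that the results turn on are shown first. For Mt1 and Mt2, which were high in the same cluster, for Gclm, a subunit of the glutathione-synthesising ligase that was low in that cluster, and for Nqo1, which was high in cluster 5, these are the 250 bases before the start of the RefSeq transcript on assembly GRCm38.p6. They are written in the direction of transcription, which is the plus strand for all except Nqo1. In Mt1 and Mt2 capitals mark the core MRE words TGCGCNC or TGCACNC on either strand, and in Gclm they mark the ARE word TGACNNNGC, which lies on the minus strand. The Nqo1 stretch has no capitals because neither word occurs in it. Mt1 lies at chr8:94178839-94179088, Mt2 at chr8:94172368-94172617, Gclm at chr3:122245307-122245556 and Nqo1 at chr8:107403206-107403455.
Mt1: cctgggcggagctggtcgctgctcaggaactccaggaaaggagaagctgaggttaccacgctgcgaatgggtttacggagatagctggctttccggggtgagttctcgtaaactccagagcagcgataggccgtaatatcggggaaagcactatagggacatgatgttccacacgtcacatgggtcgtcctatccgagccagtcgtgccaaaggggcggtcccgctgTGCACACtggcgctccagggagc
Mt2: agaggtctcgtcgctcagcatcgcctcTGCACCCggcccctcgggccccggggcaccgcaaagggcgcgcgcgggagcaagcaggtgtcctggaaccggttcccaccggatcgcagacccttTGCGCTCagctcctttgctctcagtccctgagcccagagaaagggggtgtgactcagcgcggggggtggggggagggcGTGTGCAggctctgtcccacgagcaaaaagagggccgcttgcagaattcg
Gclm: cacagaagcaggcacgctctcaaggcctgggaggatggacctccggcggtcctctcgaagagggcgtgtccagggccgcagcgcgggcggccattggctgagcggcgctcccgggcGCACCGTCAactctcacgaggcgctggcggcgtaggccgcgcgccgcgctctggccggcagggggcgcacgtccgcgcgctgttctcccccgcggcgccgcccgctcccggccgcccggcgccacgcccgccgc
Nqo1: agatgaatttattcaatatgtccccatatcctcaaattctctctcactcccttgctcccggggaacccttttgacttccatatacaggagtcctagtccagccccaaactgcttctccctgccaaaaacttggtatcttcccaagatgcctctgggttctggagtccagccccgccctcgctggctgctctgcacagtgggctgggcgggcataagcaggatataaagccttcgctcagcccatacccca
The Mt1 stretch holds 1 MRE word and the Mt2 stretch holds 3, and further words lie across or after the start. The Mt2 stretch also holds 1 ARE word, TGACTCAGC, which contains an AP-1 word (TGACTCA), so the 2 motifs overlap there.

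Peaks found in 1 population only are shown for 4 members, on the plus strand of GRCm38, the first 4 being the strongest such peak of that member and the last the next strongest at Ncf1. Where a peak is longer than 300 bases its central 300 are shown. Capitals mark ARE words, and no AP-1 word occurs in any of the 5. The Nqo1 peak (Myofibroblast, chr8:107410669-107410930) is intergenic. The Nox4 peak (MRISC, chr7:87371021-87371729, shown from 87371226 to 87371525) and the Keap1 peak (CD138, chr9:21235323-21235720, shown from 21235372 to 21235671) are intronic. The 2 Ncf1 peaks (CD138, chr5:134232139-134232469, shown from 134232155 to 134232454, and chr5:134231466-134231781, shown from 134231474 to 134231773) are intergenic, upstream of the gene.
Nqo1, Myofibroblast: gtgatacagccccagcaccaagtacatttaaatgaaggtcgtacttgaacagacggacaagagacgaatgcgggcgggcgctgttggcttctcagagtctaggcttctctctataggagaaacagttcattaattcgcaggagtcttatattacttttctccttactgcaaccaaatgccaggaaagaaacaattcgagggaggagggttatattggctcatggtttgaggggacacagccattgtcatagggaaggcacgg
Nox4, MRISC: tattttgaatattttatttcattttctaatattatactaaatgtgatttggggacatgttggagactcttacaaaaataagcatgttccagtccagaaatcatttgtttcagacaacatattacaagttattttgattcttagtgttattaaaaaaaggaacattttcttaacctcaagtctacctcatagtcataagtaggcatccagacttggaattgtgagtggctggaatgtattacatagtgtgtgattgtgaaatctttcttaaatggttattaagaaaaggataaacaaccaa
Keap1, CD138: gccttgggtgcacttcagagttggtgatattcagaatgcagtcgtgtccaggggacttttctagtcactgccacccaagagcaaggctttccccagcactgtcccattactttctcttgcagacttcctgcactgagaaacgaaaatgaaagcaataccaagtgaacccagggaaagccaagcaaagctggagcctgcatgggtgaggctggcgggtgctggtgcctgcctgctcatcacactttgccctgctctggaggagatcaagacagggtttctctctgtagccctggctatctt
Ncf1, CD138, strongest: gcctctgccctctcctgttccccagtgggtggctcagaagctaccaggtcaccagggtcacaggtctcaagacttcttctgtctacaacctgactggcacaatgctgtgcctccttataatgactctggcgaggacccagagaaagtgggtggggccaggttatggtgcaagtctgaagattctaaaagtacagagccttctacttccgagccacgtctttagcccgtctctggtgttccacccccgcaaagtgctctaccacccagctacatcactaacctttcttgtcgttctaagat
Ncf1, CD138, next: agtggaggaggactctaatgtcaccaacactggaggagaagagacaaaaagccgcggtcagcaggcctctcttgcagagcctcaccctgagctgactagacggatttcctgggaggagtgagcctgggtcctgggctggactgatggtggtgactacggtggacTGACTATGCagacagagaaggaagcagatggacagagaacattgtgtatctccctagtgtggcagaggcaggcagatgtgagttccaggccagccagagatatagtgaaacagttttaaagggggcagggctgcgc

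Of 11484 cell barcodes in the filtered matrix, 11376 had at least 500 genes and at most 10% mitochondrial counts. They held 72920197 unique molecular identifiers (UMIs, 1 per captured RNA molecule), with a median of 6052 UMIs a cell. The cells fell into 8 clusters, made without the 37 members and 76 related genes so that these genes did not define them. Cluster 1 (3863 cells, led by Fgf12, Cxcl13 and Efnb2) had too few list markers for a name. Cluster 2 (2776 cells) was lamina propria fibroblast-like, cluster 3 (2068 cells) inflamed fibroblast-like with Mmp10 and Il11, and cluster 4 (1346 cells) adventitial fibroblast-like with Pi16 and Ebf1. Cluster 4 passed 5 markers of the adventitial list and as many, 5, of the Cd34 Cd81 fibroblast list (Cd81, Grem1, Ackr4, C3 and Rspo3), so its name does not separate those types. Cluster 5 (1141 cells) was smooth muscle and myofibroblast-like, with Acta2 at 9730 CPM (a gene's share of all UMIs, times 1e+06). Clusters 6 (71 cells, mesothelium-like) and 7 (60 cells, crypt-top fibroblast-like, with 3 pericyte markers) were small. Cluster 8 (51 cells) carried epithelial, myeloid, T, B and cycling markers together, with all 8 of the listed epithelial markers high and Pdpn, the gene for gp38, at 24.1 CPM against 116 to 477 CPM elsewhere. It was left unnamed, and doublets were not called, so mixed droplets may remain in it.

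A cluster's level is its summed UMIs as CPM, with an exact Poisson 95% interval. A gene is called high in a cluster at 2-fold or more above all other kept cells and at least 20 CPM there, and low at a ratio of 1/2 or under where the other cells reach 20 CPM. With 1 library there is no replicate, no test was possible, and the intervals cover counting error only. Of the 37 members, 33 reached 20 CPM in at least 1 cluster; Nox4, Cybb, Ncf1 and Slc7a11 did not. Of those 33, 12 were high in a cluster, where 35.9% of the 8553 genes at that level were, so the members' share was near the background. Without the cells of cluster 8, 5 of 31 members were high (background 24.3%). In the 5 large clusters 4 members were high (background 10.8%) and 5 were low (background 9.89%). Over all clusters 11 were low (background 27.4%). No member was high in cluster 1 (background 0.339%), 2 (0.947%) or 3 (1.15%), and none was low in cluster 2 (1.58%) or 3 (1.43%).

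**Figure D1:**
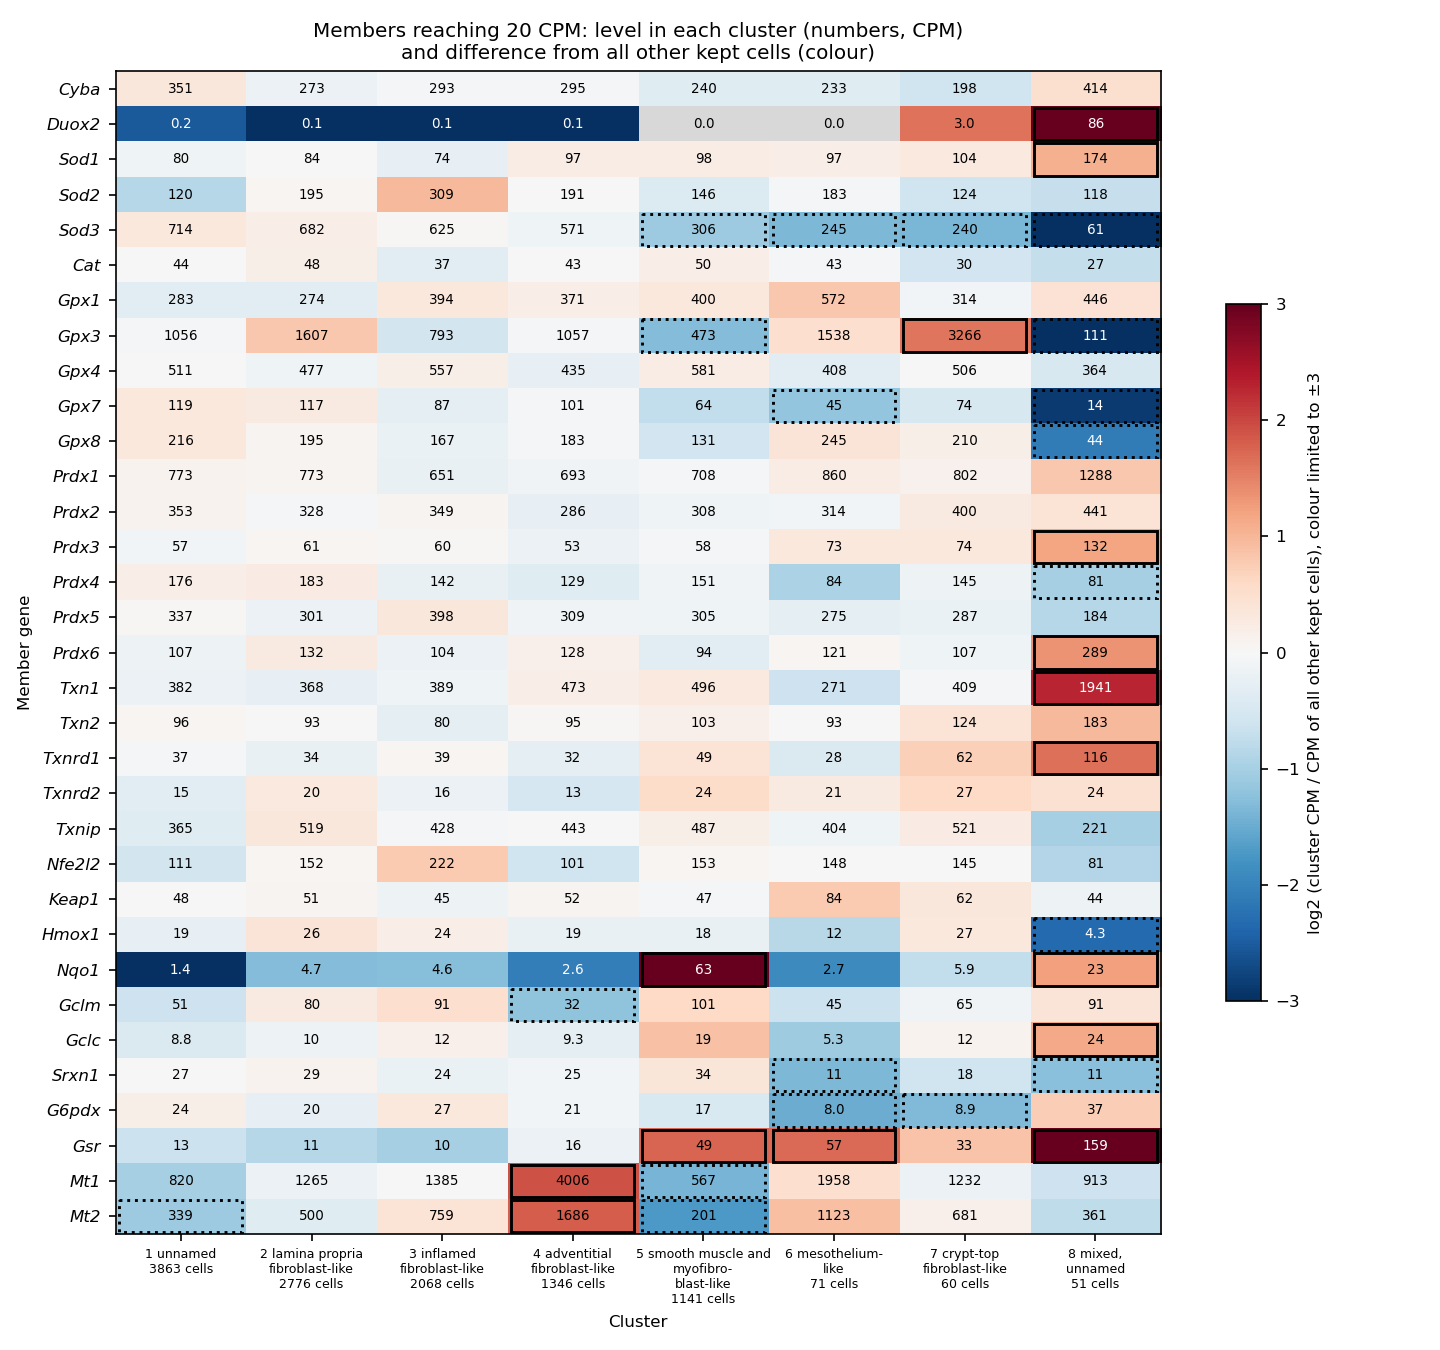
Pooled CPM (numbers) of the 33 members that reached 20 CPM, by cluster (columns), with colour for the log2 ratio to all other kept cells, solid boxes for high calls, dotted boxes for low calls and grey for 0 UMIs. Mt1 and Mt2 are boxed as high in cluster 4, Nqo1 and Gsr in cluster 5, and 9 members in cluster 8.

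Most members varied little between the large clusters. Over clusters 1 to 5 the ratio of highest to lowest level was under 2 for 22 of 31 members at 20 CPM, and 72.4% of 6854 genes were under 2. The median ratio was 1.46 for the members and 1.53 for all genes. The peroxiredoxin Prdx3 had the narrowest spread, with a ratio of 1.14, and Nqo1 the widest, with 44.9.

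Among the oxidant sources only Cyba, which codes for p22phox, the membrane partner of several NADPH oxidases, was broadly present. It was at 240 to 351 CPM in clusters 1 to 5 and was called neither high nor low in any cluster. Cybb, the catalytic subunit of the phagocyte oxidase, had 30 UMIs in all cells and Ncf1, its cytosolic organiser p47phox, had 26. Of these, 4 and 8 UMIs were in the 51 cells of cluster 8. Both genes had 0 UMIs in cluster 4, where 3 UMIs would be 0.368 CPM.

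Nox4, the oxidase that releases hydrogen peroxide without cytosolic subunits, had 217 UMIs and stayed under the 20 CPM minimum. Its level was highest in cluster 4, at 7.48 CPM (95% interval 5.72 to 9.61), followed by cluster 2 at 4.76 (3.82 to 5.87). It was lowest of the large clusters in cluster 3, at 0.546 (0.236 to 1.08), from 8 UMIs. The intervals of clusters 4 and 3 did not overlap, and those of clusters 4 and 2 did. The 3 small clusters had 0 Nox4 UMIs, and in cluster 7 a count of 3 UMIs would be 8.88 CPM. Duox2, a hydrogen peroxide-producing oxidase of epithelia, was at 86.4 CPM in cluster 8, which held 61 of its 71 UMIs, and at 0.227 CPM or under in clusters 1 to 5.

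Of the superoxide-removing enzymes, the extracellular Sod3 was the one with a low call in a large cluster. It was at 571 to 714 CPM in clusters 1 to 4 and at 306 CPM (294 to 319) in smooth muscle and myofibroblast-like cluster 5, a ratio of 0.469 to all other cells, where 4.52% of genes were low. It was also low in clusters 6, 7 and 8, at 245, 240 and 60.9 CPM, with backgrounds of 9.44%, 5.92% and 22.1%. Clusters 1 to 4 thus held the higher levels, and the crypt-top fibroblast-like cluster 7 was among the low ones. No interval of clusters 1 to 4 reached those of clusters 5 to 8.

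Sod2, the manganese enzyme of mitochondria and a gene induced by NF-kB, was highest in inflamed fibroblast-like cluster 3, at 309 CPM (300 to 318). Its lowest level was 118 CPM in cluster 8 and its median over the 8 clusters 165 CPM. The ratio of cluster 3 to all other cells was 1.96 (1.89 to 2.03), just under the 2-fold threshold, so it was not called. At a finer clustering 1047 cells of cluster 3 led by Nxf7 and Cd36 had 368 CPM of Sod2, 2.18 times all other cells and past the threshold. The next level was 303 CPM, in 615 cells of cluster 2 led by Ces1f. Sod1, the copper-zinc enzyme of the cytosol, was at 74.0 to 97.9 CPM in the large clusters, and Cat, which breaks down hydrogen peroxide in peroxisomes, at 36.9 to 49.6 CPM.

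Gpx3, the secreted glutathione peroxidase, was the family member with a high call. It was at 3266 CPM (3076 to 3465) in crypt-top fibroblast-like cluster 7, 3.03 times all other cells (2.86 to 3.22), where 5.92% of genes were high. Every one of the 60 cells had a Gpx3 UMI. The next levels were 1607 CPM in cluster 2 and 1538 CPM in cluster 6, and the median over clusters was 1056 CPM. It was low in cluster 5, at 473 CPM (458 to 488), and in cluster 8, at 111 CPM. Gpx1, Gpx4, the enzyme that reduces lipid peroxides and prevents ferroptosis, and the endoplasmic reticulum members Gpx7 and Gpx8 were called in none of clusters 1 to 5. Gpx7 was low in cluster 6, at 45.2 CPM (31.3 to 63.2), and both Gpx7 and Gpx8 were low in cluster 8.

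The peroxiredoxins, which reduce peroxides with a reactive cysteine, were even. None of the 6 was called in clusters 1 to 7. Prdx1 was at 651 to 773 CPM in the large clusters, and Prdx4, the enzyme of the endoplasmic reticulum, at 129 to 183 CPM. Of the thioredoxin system, which recycles the peroxiredoxins, neither Txn1, Txn2, the reductases Txnrd1 and Txnrd2, nor Txnip, the inhibitor of thioredoxin, was called in clusters 1 to 7. Txnrd2, the mitochondrial reductase, was at 24.5 CPM in cluster 5 and 12.9 CPM in cluster 4.

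In cluster 8, 9 members were high (background 16.4%) and 7 were low (background 22.1%). Txn1 was at 1941 CPM (1840 to 2047), 4.84 times all other cells, and Gsr, glutathione reductase, at 159 CPM (131 to 191), 9.50 times. Sod1, Prdx3, Prdx6, Txnrd1, Gclc and Nqo1 were 2.08 to 3.13 times higher, and Duox2 was the ninth. Several of these depended on the processing. With no cell filter the log2 ratio in the best-matched cluster was -0.26 for Sod1, -0.33 for Txn1 and -0.68 for Txnrd1. For Gsr it was 0.38, beside 3.25 with the filter. Without the deepest cells it was -0.43 for Sod1, 0.34 for Txn1 and 1.67 for Gsr, beside 2.27 for Txn1 with them. Duox2 and Gclc had no value with no cell filter or without the deepest cells. After thinning the log2 ratio was -0.13 for Gclc. Of the cells in either cluster 8 or its best match, a share of 0.31 was in both with no cell filter. That share was 0.53 without the deepest cells and 0.69 after thinning. Low there were Sod3, Gpx3, Gpx7, Gpx8, Prdx4, Srxn1 and Hmox1, the last with 3 UMIs and a ratio of 0.198 (0.0408 to 0.580). The summed epithelial markers were at 6745 CPM in this cluster and at 14.9 to 501 CPM in the others. The summed B and plasma cell markers were at 23110 CPM in it and at 70.5 to 474 CPM in the others. The part of each of these cell types in the member levels was not tested.

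Nfe2l2 itself was highest in cluster 3, at 222 CPM (214 to 230), and lowest of the large clusters in cluster 4, at 101 CPM (94.5 to 108). Its ratio in cluster 3 was 1.73 (1.66 to 1.80), so it was not called. Keap1 was at 44.6 to 51.6 CPM in clusters 1 to 5 and at 83.8 CPM in cluster 6. Transcript level says little of NRF2 activity, which is set mainly by protein stability.

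Nqo1, the quinone reductase used as a standard readout of NRF2, had 492 of its 718 UMIs in cluster 5. It was at 63.1 CPM (57.7 to 68.9) in cluster 5 and at 1.41, 4.71, 4.57 and 2.57 CPM in clusters 1 to 4. The ratio of cluster 5 to all other cells was 18.2 (15.5 to 21.4), where 5.42% of genes were high. In cluster 5, 31.2% of cells had a Nqo1 UMI and in cluster 1, 0.802%, at median depths of 5828 and 5614 UMIs. With every cell thinned to 3000 UMIs these shares were 16.4% and 0.468%. At the finer clustering, 889 cells led by Actg2 and Cnn1 had 78.1 CPM and 276 cells led by Frem2 and Chodl, with a median depth of 9979 UMIs, had 31.5 CPM. Both lie in the smooth muscle and myofibroblast-like group, and both were above every fibroblast-like cluster.

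Gsr, which regenerates reduced glutathione, was the other NRF2 target high in cluster 5. It was at 48.6 CPM (43.8 to 53.8) there, 3.37 times all other cells (2.99 to 3.80), and at 10.1 to 16.3 CPM in clusters 1 to 4. In mesothelium-like cluster 6 it was at 57.2 CPM (41.4 to 77.0), 3.24 times higher, where 9.04% of genes were high. The share of cells followed the level, since 13.9% of cluster 5 cells had a Gsr UMI after thinning and 2.61% to 6.52% of cells in clusters 1 to 4. Across cells of cluster 5 at equal depth, Nqo1 and Gsr had a correlation of -0.01 (Pearson, 1090 cells of 1 library, mostly zeros), which is no relation at this depth.

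No other NRF2 target was high in a cluster from 1 to 7, although Gclm, Gclc and Srxn1 had their highest levels of the large clusters in cluster 5. Hmox1 and G6pdx had their lowest of the large clusters there, at 18.5 and 16.8 CPM. Gclm was low in cluster 4, at 32.5 CPM (28.7 to 36.6), a ratio of 0.434 (background 4.26%), and its highest level was 101 CPM in cluster 5. Gclc, the catalytic subunit of the same ligase, was at 18.7 CPM in cluster 5 and at 8.85 to 11.9 CPM in clusters 1 to 4. Hmox1, which degrades haem, was at 18.5 to 25.8 CPM in the large clusters, and Srxn1, which repairs over-oxidised peroxiredoxins, at 24.1 to 33.6 CPM. Slc7a11, the cystine importer, had 12 UMIs in all. Srxn1 and G6pdx, the first enzyme of the NADPH-producing pentose phosphate pathway, were low in cluster 6 from 8 and 6 UMIs. G6pdx was low in cluster 7 from 3 UMIs, with a ratio of 0.397 (0.0818 to 1.16).

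Over the 11 members counted as NRF2 targets (these 8 with Prdx1, Txn1 and Txnrd1), 10 of which reached 20 CPM, 2 were high and none low in cluster 5 (backgrounds 5.42% and 4.52%). The median ratio was 1.31 for them and 0.959 for all 33 members in that cluster. Their summed level was 1271 to 1553 CPM in clusters 1 to 7 and 3694 CPM in cluster 8, a sum mostly made of Prdx1 and Txn1.

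Both metallothioneins were high in cluster 4, which carries adventitial and Cd34 Cd81 fibroblast markers alike. Mt1 was at 4006 CPM (3962 to 4049) in cluster 4, and at 820, 1265, 1385 and 567 CPM in clusters 1, 2, 3 and 5. That is 3.78 times all other cells (3.73 to 3.83), where 3.29% of genes were high. Mt2 was at 1686 CPM (1658 to 1714) in cluster 4, 3.55 times all other cells, and at 339, 500, 759 and 201 CPM in the other large clusters. Both were low in cluster 5, and Mt2 was low in cluster 1 (background 2.97%). The next highest levels were those of mesothelium-like cluster 6, at 1958 and 1123 CPM.

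Per 10000 UMIs, the percentile 10, median and percentile 90 of Mt1 were 1.87, 17.6 and 105 in cluster 4 and 1.5, 5.87 and 17.1 in cluster 1. The 10% of cells with the most held 43.0% of the Mt1 UMIs of cluster 4, and 36.3% to 47.2% in the other clusters, so this share was not particular to cluster 4. At equal depth, Mt1 and Mt2 had a correlation across cells of 0.73 (Pearson) and 0.67 (Spearman) in cluster 4, over cells that share 1 library. In clusters 1, 2, 3 and 5 Pearson's value was 0.51, 0.60, 0.66 and 0.34, and in the small clusters it was 0.59 to 0.73. Spearman's value was lower in clusters 1, 2, 3 and 5, at 0.27, 0.39, 0.45 and 0.15. It was 0.68, 0.62 and 0.19 in clusters 6, 7 and 8. At the finer clustering Mt1 was also at 2170 CPM in the Ces1f-led cells of cluster 2 that had 303 CPM of Sod2, against 729 and 1183 CPM in the other 2 groups of that cluster. The ratio of Mt1 to Mt2 UMIs lay between 1.74 and 2.82 in all 8 clusters.

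**Figure D2:**
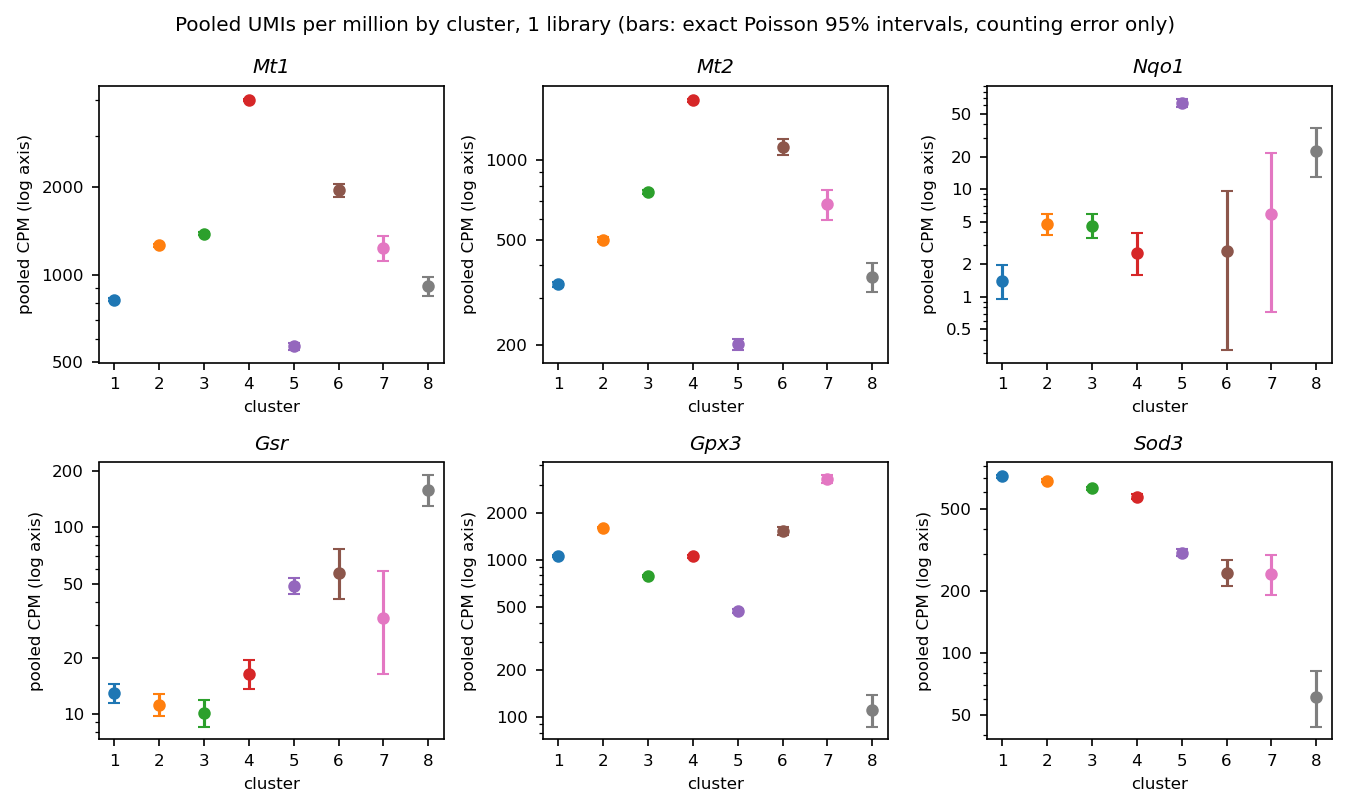
Pooled CPM (log axis) of 6 members by cluster (x axis, numbered as in the text), with exact Poisson 95% intervals for counting error only. Mt1 and Mt2 peak in cluster 4, Nqo1 in cluster 5, Gsr in cluster 8 and Gpx3 in cluster 7, and Sod3 is higher in clusters 1 to 4 than in clusters 5 to 8.

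Free RNA was measured in 546978 droplets of 1 to 100 UMIs. For the 33 members that reached 20 CPM, the ratio of the level there to that in cells ran from 0.681 for Nqo1 to 2.14 for Duox2, with a median of 0.992. Mt1 was at 1654 CPM in these droplets. Of the rarer members, Nox4 had a ratio of 1.48, Cybb one of 3.37 and Ncf1 one of 0.649, and Slc7a11 had 0 UMIs there. Nox4 was at 4.39 CPM in these droplets, beside a median of 2.13 CPM over the large clusters and 7.48 CPM in cluster 4. The part of free RNA in the lowest cluster levels, and in those of Nox4, was not tested.

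Related genes of the pathway were taken from 5 lists of 77 genes, of which 76 were matched and 62 reached 20 CPM. In the 5 large clusters 7 were high and 6 were low, which is near the backgrounds of 10.8% and 9.89%. The high ones in cluster 5 were Me1, a cytosolic NADPH-producing enzyme, at 34.4 CPM, and the methionine sulfoxide reductases Msrb1 and Msrb3, 3.30 and 2.27 times all other cells, with Msrb1 at 210 CPM. In cluster 4 they were Ugdh, at 580 CPM, and Maff, a small MAF partner of NRF2, at 115 CPM. Aldh3a1, an aldehyde dehydrogenase, was high in cluster 3 at 22.7 CPM, and the iron exporter Slc40a1 in cluster 2 at 69.0 CPM. Low in cluster 5 were Ephx1 and Ugdh of the NRF2 list, at 0.409 and 0.421 times all other cells. Gpx2 was low there too, and in every other cluster from 1 to 7, at 6.65 CPM or under. It was at 2769 CPM in cluster 8, whose cells are among the other cells in each of these ratios.

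The 2 most abundant genes of each list were fixed for naming. The ferritin chains Fth1 and Ftl1 were at 5272 and 3382 CPM over all cells, and Fth1 reached 16830 CPM in cluster 6. Gstm1 and Mgst1, of glutathione conjugation, were at 554 and 399 CPM. Slc40a1 and Mtf1, the factor that drives metallothionein genes, were at 32.4 and 16.1 CPM, and Mtf1 was at 12.0 CPM in cluster 4, its lowest of the large clusters. Rac1 and Cybc1, of the oxidase list, were at 244 and 34.9 CPM, and P4hb and Txndc5, of protein disulphide exchange, at 246 and 224 CPM. In cluster 8, 5 of the 7 oxidase partners that reached 20 CPM were high (background 16.4%) and Cybc1 was low (background 22.1%). Among the high ones were Nox1 at 68.0 CPM, Duoxa2, the maturation factor of Duox2, at 75.1 CPM, and Rac2 at 62.4 CPM.

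In the ATAC-seq data each population has 1 list of all peaks (Total) and 1 of peaks found only there (Specific), with no list per library, so there is no replicate spread. The Total lists hold 177054 (MRISC), 143411 (CD34 SP), 216805 (CD138) and 179351 (Myofibroblast) peaks. The score of a peak is the authors' own, and is used only to rank peaks within a list. A promoter peak was counted where a Total peak overlapped 1 kb on either side of an annotated start.

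Members had promoter peaks nearly throughout. Of the 37, 36 had one in each of MRISC, CD34 SP and CD138, and 33 had one in Myofibroblast, where 68.6%, 66.3%, 69.8% and 66.8% of all protein-coding genes did. The promoter backgrounds were not matched for RNA level. In the single cells 33 of the 37 members reached 20 CPM in a cluster, as did 8553 of the 31053 genes of the matrix. The promoter was open in all 4 populations for 33 members (background 59.3%) and in none for 1, Cybb (background 22.2%). Nox4, Ncf1 and Duox2 had one in the other 3 populations and lacked one in Myofibroblast. Thus all 4 exceptions were oxidant sources, whereas every scavenging enzyme, both regulators, every NRF2 target and both metallothioneins had an open promoter in each population. Slc7a11 had one too, with 12 UMIs in the single cells.

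Most promoter peaks ranked high. The best one was at percentile 90 of its list or above for 27 of 33 members in Myofibroblast, 32 of 36 in CD138, 25 of 36 in CD34 SP and 34 of 36 in MRISC. The median percentiles for MRISC, CD34 SP, CD138 and Myofibroblast were 96.5, 95.8, 96.7 and 96.9, beside 94.6, 92.5, 96.0 and 95.2 over all genes with one. The lowest were those of Ncf1, at percentile 31.1 in MRISC and 27.7 in CD34 SP. At Nox4 the promoter peak was at percentile 93.0 in MRISC, 78.3 in CD34 SP and 73.4 in CD138.

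In the gene body with 10 kb on both sides, members had 308 Total peaks for MRISC, 275 and 271 for CD34 SP and CD138, and 246 for Myofibroblast. Of these, 114, 86, 110 and 106 were Specific. With every list cut to the 143411 highest scores and Specific peaks called again, the counts were 73, 95, 56 and 79, so the order of the populations changes with the list length. At least 1 Specific peak was present at 31, 33, 32 and 28 members, where 72.8%, 62.8%, 78.4% and 77.9% of genes had one. Overlapping peaks of the 4 lists merged into 610 regions, of which 81 (13.3%) were open in all 4 populations, beside 9.11% at all genes. Regions open in MRISC and CD34 SP alone were 38 (6.23%, beside 3.95% at all genes). Mt1 and Mt2 lie next to each other, and 7 of the regions are shared by their windows.

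**Figure D3:**
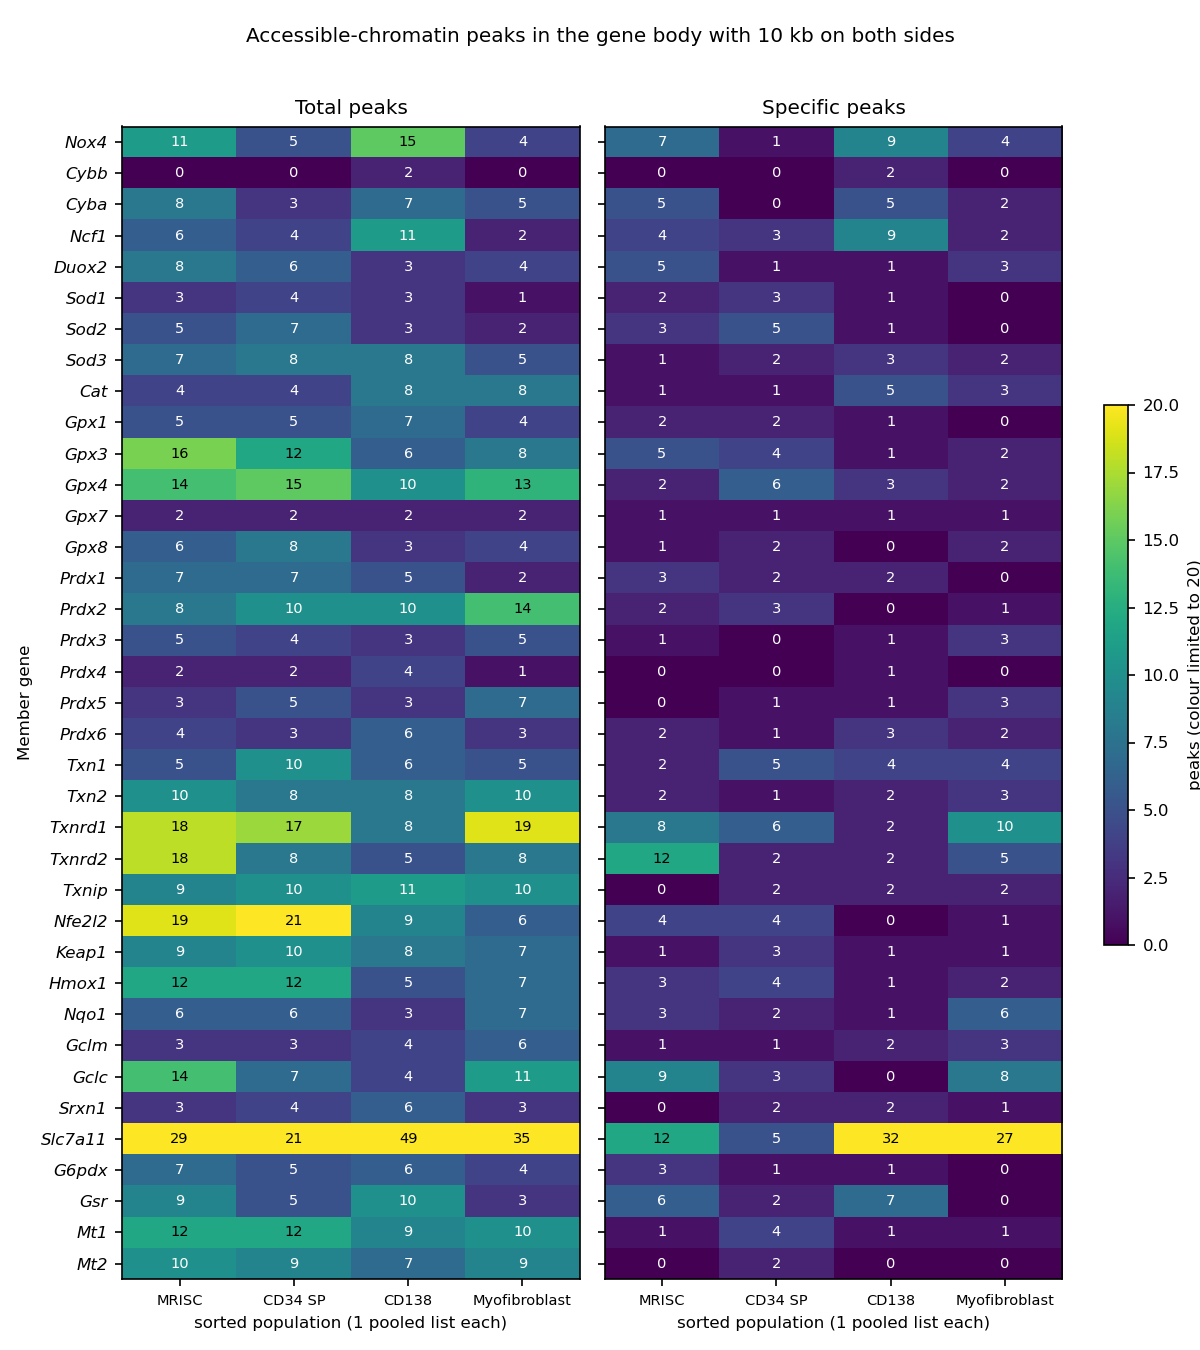
Number of Total (left) and Specific (right) peaks in the gene body with 10 kb on both sides, for each of the 37 members (rows) and 4 populations (columns), with colour limited to 20. Slc7a11, whose gene spans 551.1 kb, has the most peaks, and Cybb has 2, both in CD138.

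Of the Specific peaks, 18, 11, 34 and 36 ranked above the median score of the population's Total list, at 32 of the 37 members (background 75.5% of genes), with 1 peak shared by Mt1 and Mt2. The strongest one of a member lay in CD138 for 12 members, in Myofibroblast for 11, in MRISC for 5 and in CD34 SP for 4. These are 37.5%, 34.4%, 15.6% and 12.5% of the 32, where 35.1%, 50%, 11.3% and 3.5% of the 16555 genes with such a peak had theirs in the same populations. A strongest peak below is read as a description of that gene, since most genes have one. Positions below are on GRCm38.

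Among the oxidant sources the CD138 peaks above the median were mostly at 1 gene. Ncf1 had 11 peaks there, of which 9 were Specific and 7 ranked above the median, lying from the gene start outwards into the upstream region, the outermost within Gtf2i. It had 6, 4 and 2 peaks in MRISC, CD34 SP and Myofibroblast. The gene overlaps Gtf2ird2 at its far end. Cybb had 2 peaks, both Specific to CD138, the stronger in an intron at chrX:9470796-9471125 (percentile 83.2). Cyba had 3 Specific peaks above the median in MRISC and 1 in CD138, and the CD138 one was the strongest, at chr8:122430093-122430594 (83.7), in an intron that also lies within Gm20388. Genes of the phagocyte oxidase are expressed in myeloid cells, which the sort against CD45 was to remove. Marker genes were counted the same way: 8 macrophage markers had 29 and 26 Specific peaks in CD138 and Myofibroblast and 23 and 5 in MRISC and CD34 SP, and 6 B and plasma cell markers, of which 5 were matched, had 21, 20, 8 and 3 in the same order. The 8 epithelial markers (26, 25, 13 and 10) and the 7 smooth muscle and myofibroblast markers (41, 39, 23 and 18) had the same order. So did the 5 T cell markers, of which 4 were matched (13, 8, 5 and 3). The 5 neutrophil markers (11, 5, 6 and 4) and the 7 endothelial markers (40, 24, 34 and 17) did not. The whole Specific lists, with 126535, 112847, 82517 and 49629 peaks, had that order too. Whether other cells gave the Ncf1 and Cybb peaks was not tested.

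Nox4 had 15 peaks in CD138, 11 in MRISC, 5 in CD34 SP and 4 in Myofibroblast, all 4 of the last being Specific. Its strongest Specific peak was the MRISC one shown above, 124563 bases after the nearest annotated start and at percentile 85.5. At Duox2 the strongest was at chr2:122278895-122279088 in MRISC (50.8).

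For the dismutases and catalase, Sod2 had its strongest in a CD34 SP intronic peak at chr17:13008883-13009139 (54.3) and Cat at chr2:103463209-103463480 in CD138 (77.0), over an exon. Sod1 and Sod3 had none above the median. Of the glutathione peroxidases, Gpx3 and Gpx7 had theirs downstream in Myofibroblast, at chr11:54913033-54913375 (81.9, in a Tnip1 intron) and chr4:108397116-108397337 (71.9). Gpx4 had one in CD138 at chr10:80050356-80050565 (69.7), and Gpx1 and Gpx8 in MRISC at chr9:108348690-108349029 (64.5, in Usp4) and chr13:113038779-113039014 (57.1, in Cdc20b). The peroxiredoxins Prdx1, Prdx3 and Prdx6 had theirs at chr4:116690418-116690609 in CD138 (56.9), chr19:60864136-60864344 in Myofibroblast (70.8) and chr1:161252214-161252393 in CD138 (53.7). Prdx2, Prdx4 and Prdx5 had none above the median, so 3 of the 6 peroxiredoxins had one.

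Of the 5 thioredoxin genes, 4 had their strongest Specific peak in Myofibroblast, although the counts were also high in MRISC. Txnrd1 had 19 peaks in Myofibroblast and 18 in MRISC, 10 and 8 of them Specific, and 5 of the Myofibroblast ones were above the median, the strongest at chr10:82844605-82844827 (74.5). Txnrd2 had 8 peaks in Myofibroblast, 5 of them Specific, and 18 in MRISC, 12 of them Specific; its strongest was in Myofibroblast at chr16:18459610-18459841 (83.0). Txnip had one there at chr3:96566975-96567514 (83.3, downstream) and Txn2 one at chr15:77923050-77923204 (58.3). Txn1 had its strongest in CD138, upstream at chr4:57958186-57958563 (84.5).

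Keap1 had the highest-ranked Specific peak of all members, the intronic CD138 peak shown above, at percentile 91.2. Nfe2l2 had 19 and 21 Total peaks in MRISC and CD34 SP and 9 and 6 in CD138 and Myofibroblast. Few were Specific (4, 4, 0 and 1), so most of the difference was in peaks that MRISC and CD34 SP share, and the strongest Specific one was downstream in CD34 SP at chr2:75669474-75669894 (58.9).

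Nqo1, high in smooth muscle and myofibroblast-like cluster 5, had 7 peaks in Myofibroblast, and 6 of these were Specific, beside 3 of 6, 2 of 6 and 1 of 3 in MRISC, CD34 SP and CD138. Its promoter peak was shared by all 4, at percentiles 96.2 to 98.5. The strongest Specific peak was the upstream one shown above, at -7593 bases from the start and at percentile 71.2. Gsr, the other gene high in that cluster, had 3 peaks in Myofibroblast and 0 Specific ones, and its strongest was in CD138 at chr8:33646720-33647002 (64.8). Of all Myofibroblast peaks 62.9% are Specific, so a Specific peak is common in that list. The sorted populations and the clusters come from separate mice and were not matched to each other.

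Gclc and Gclm had their strongest Specific peaks in Myofibroblast too. Gclc had 8 Specific peaks there, 9 in MRISC, 3 in CD34 SP and 0 in CD138, with the strongest in an intron at chr9:77770977-77771317 (82.9). Gclm had its strongest at chr3:122256411-122256644 (78.7). Those of Srxn1 and Slc7a11 were in CD138, at chr2:152101984-152102228 (76.6, upstream) and chr3:50278274-50278730 (82.7, intron), that of Hmox1 in CD34 SP at chr8:75094780-75095056 (55.3) and that of G6pdx in MRISC at chrX:74426557-74426808 (59.1, where Ikbkg overlaps).

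At the metallothioneins most peaks were shared. The Mt1 window had 12 MRISC, 12 CD34 SP, 9 CD138 and 10 Myofibroblast peaks, of which 1, 4, 1 and 1 were Specific, and the strongest Specific one was downstream in Myofibroblast at chr8:94187463-94187698 (72.9). The Mt2 window had 10, 9, 7 and 9, with 2 Specific peaks, both in CD34 SP, the stronger at chr8:94175427-94175731 (57.5), between Mt2 and Mt1. Both promoters ranked high in every list, at percentiles 94.4 to 99.0. No metallothionein promoter peak was Specific to any population.

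**Figure D4:**
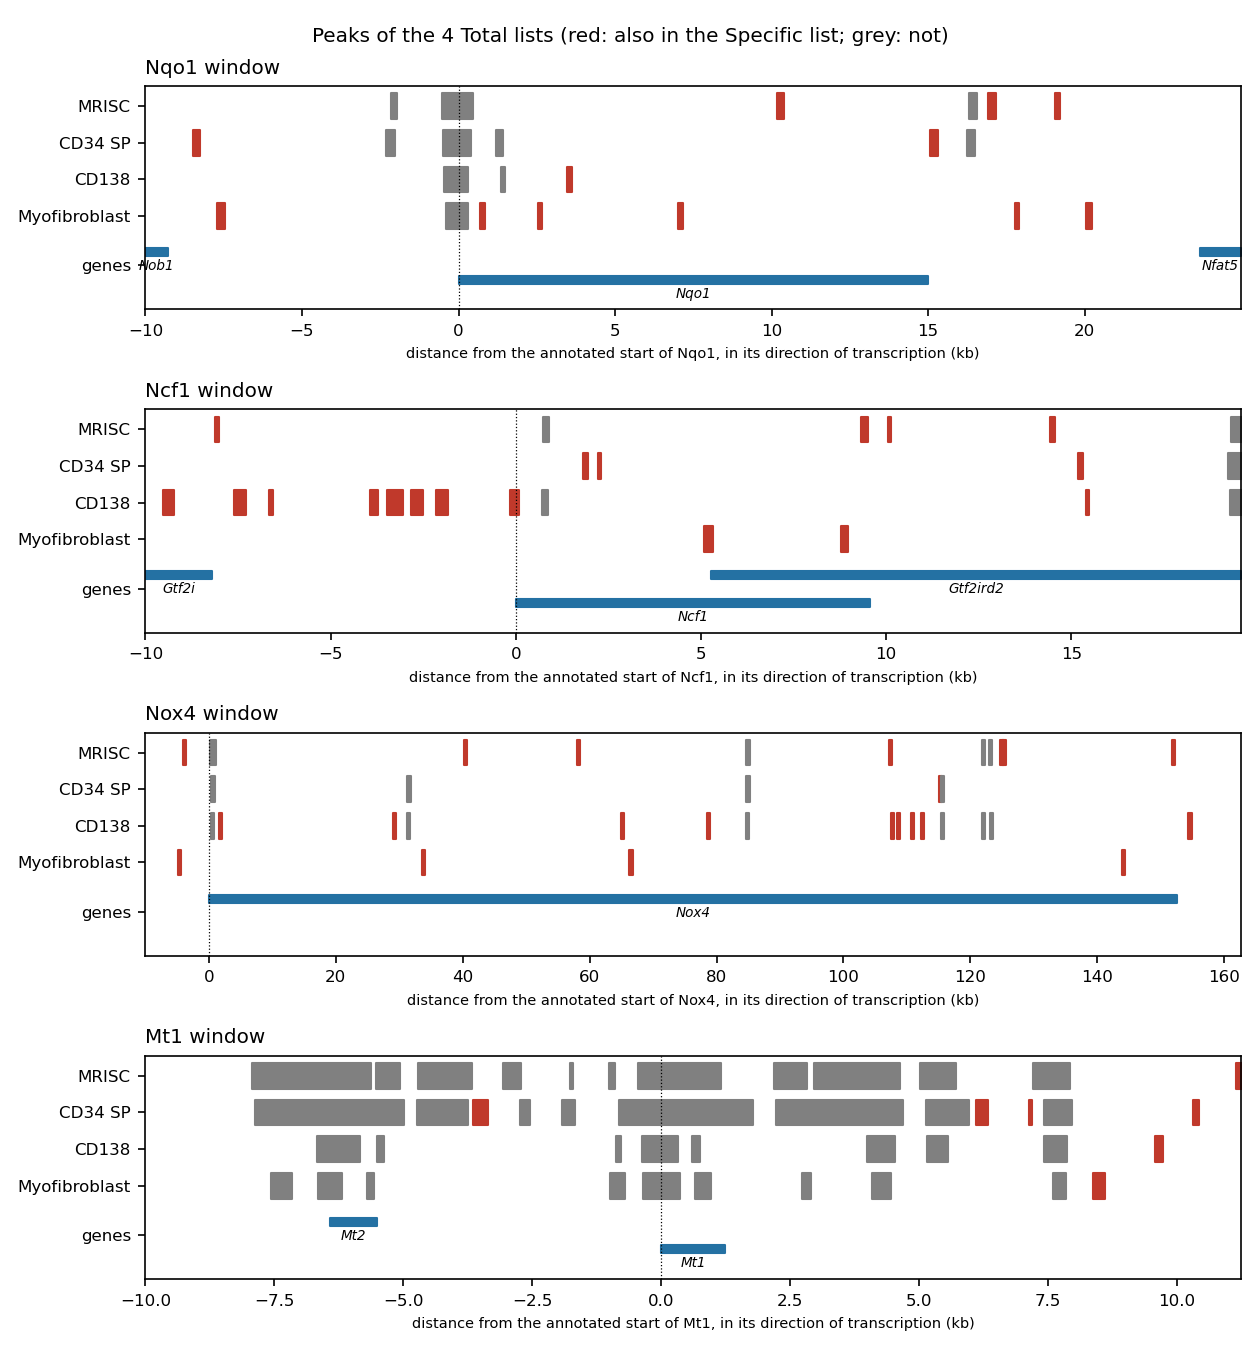
Peaks in the windows of Nqo1, Ncf1, Nox4 and Mt1, by distance from the annotated start (kb, x axis), with 1 row for each population, red for peaks that are also in the Specific list, grey for the others and blue for genes. At Ncf1 most of the red CD138 peaks lie at or upstream of the start, at Nqo1 all Myofibroblast peaks except the promoter one are red, and at Mt1 most peaks are grey.

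Motif words were searched on both strands in RefSeq promoters, from 250 bases before to 50 after a start. Of the members, 32 matched, with 37 promoters. Gclc, Hmox1, Gsr, Prdx6 and Sod3 had no match. The ARE word TGACNNNGC was in 8 of the 37 (21.6%), beside 12.4% of all 32851 promoters of the same length. They belonged to G6pdx, Gclm, Mt2, Nfe2l2, Prdx1, Sod1, Srxn1 and Txnrd1. MRE words were in 11 (29.7%, beside 25.7%), with 3 at Mt1 and 4 at Mt2, CCAAT was in 15 (40.5%, beside 37.4%), AP-1 words (TGAGTCA or TGACTCA) were in 3 (8.11%, beside 5.2%) and the E-box CACGTG in 1 (2.7%, beside 7.15%). The AP-1 words were at Mt2, Prdx1 and Srxn1, and in Mt2 and Prdx1 the ARE word TGACTCAGC contains one.

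In the central 200 bases of the Specific peaks above the median score, the ARE word was in 0 of 18 MRISC and 0 of 11 CD34 SP peaks, and in 4 of 34 CD138 and 1 of 36 Myofibroblast peaks. Over all such peaks outside chromosome 18 it was in 8.86%, 9.81%, 8.06% and 7.22%. AP-1 words were in 1, 0, 5 and 2, beside 9.2%, 19.4%, 5.12% and 4.47%. These are matches of letters and not measured binding.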

How the data were processed

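The deposited single-cell matrix holds UMI counts, made by the authors with Cell Ranger (matrix software version 3.0.0 per the file headers, tool named in the submitters' processing notes). The deposited peak lists hold a score for each peak, on the mm10 build that the submitters' processing notes name. How peaks were called is not given in the sources used here. Members and lists were chosen with earlier results of these data known. Barcodes under 500 genes or over 10% mitochondrial counts were left out, and the rest were clustered with scanpy 1.11.5 (1984 variable genes without redox genes, 30 components, 15 neighbours, Leiden resolution 0.5). Counts were summed per cluster, with exact 95% Poisson intervals, and ratios had exact conditional binomial intervals. Cells were thinned to 3000 UMIs for shares of cells, which left out 736 cells. Overlaps of peaks (at least 1 base) with GENCODE vM21 genes and 10 kb on both sides were found by a custom search. On simulated intervals that search gave the same counts as bedtools 2.31.1. Fixed for naming were the members with a call and the strongest Specific peak of each member above the median score. The 2 most abundant genes of each related list were fixed too. Other related genes, such as Me1 and Msrb1, were named because they were called high or low. Levels of some members without a high or low call, such as Nox4 and Sod2, are given as well. The calling rule was run on simulated Poisson counts of genes at 20 CPM or more over all cells. Those counts hold counting error only, with no spread between cells or libraries. Nqo1, Gsr, Gclc and Duox2 were under that level, so the run says nothing of their calls. With 1 library and 1 list for each population no test was run.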

Additional observations from a re-analysis of the deposited data

How the results depend on the processing

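No paired analysis was possible because each population has 1 peak list pooled over its samples and there is 1 single-cell library; leaving out a replicate could not be run for the same reason. The 12 members high in a cluster became 21 at a 1.5-fold threshold, 6 without cells above the 95th percentile of UMIs, where cluster 8 fell below 50 cells, and 5 without cluster 8, an alternative chosen after seeing the data. Without cluster 8 the background was 24.3%. The share over all genes was not computed for the counts of 21 and 6, so these cannot be set against a background. The 114, 86, 110 and 106 Specific peaks (MRISC, CD34 SP, CD138, Myofibroblast) became 257, 206, 288 and 265 with 50 kb on both sides, 73, 40, 67 and 69 in the gene body alone, and 18, 11, 34 and 36 above the median score. With lists cut to 143411 peaks and Specific peaks called again, the counts were 73, 95, 56 and 79, so CD34 SP went from the fewest to the most and CD138 to the fewest. Promoter counts stayed within 1.5 times. In cluster 8 or its best match, the log2 ratio turned sign for Sod1 (-0.26), Txn1 (-0.33) and Txnrd1 (-0.68) with no cell filter. It also did so for Gclc (-0.13) after thinning and for Sod1 (-0.43) without the deepest cells. The share of cells in either cluster that were in both was 0.31, 0.69 and 0.53 under these settings, in that order. Partly different cells are thus compared, and the cause was not tested. Gsr there went from 3.25 to 0.38 with no cell filter. The log2 ratios of Mt1 (1.9 to 2.1) and Mt2 (1.81 to 1.98) in cluster 4, Nqo1 (4.07 to 4.48) and Gsr (1.74 to 2.07) in cluster 5 and Gpx3 (1.49 to 1.7) in cluster 7 kept their direction under every alternative run. Of all log2 ratios recomputed for the high calls, these included and threshold settings left out, 66 stayed within their intervals, 21 moved outside and 5 turned sign. Depth limits Nox4, Cybb, Ncf1 and Slc7a11, and counts under 10 UMIs in clusters 6 to 8.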
